A study of Homo sapiens with 4 samples.

Results

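Zinc finger genes that lie outside chromosome 19 were examined in the authors' deposited table of YTHDF1 peaks. A gene was taken when its symbol began with ZNF and a digit, its biotype was protein_coding and it lay on any chromosome other than 19. By this rule, which used names and positions and no measured value, 147 genes on 20 chromosomes were found, with 586 of the 26819 listed windows. They made up 2.20% of the 6679 protein-coding genes in the table and 2.37% of the windows of such genes. They were set beside 5832 other protein-coding genes of the same chromosomes (21729 windows) and, where useful, beside 105 zinc finger genes of chromosome 19 (318 windows).

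ZNF genes encode proteins that fold around zinc ions, most of them with arrays of C2H2 fingers that read DNA sequence. Many carry a KRAB domain, which recruits the co-repressor TRIM28 and with it the histone methyltransferase SETDB1, and such proteins silence transposable elements in particular. YTHDF1 is a cytoplasmic reader of N6-methyladenosine (m6A) in RNA, so a window in a ZNF gene concerns the RNA of that gene and not the DNA bound by its protein.

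RNA immunoprecipitation sequencing (RIP-seq) was performed in SNU638, an established human gastric cancer cell line. All cells overexpressed YTHDF1. IFN-γ was given to every culture at 10 ng/ml over 24 h, after 24 h of culture without serum. The libraries were input (n = 2) and IP-YTHDF1 (n = 2), so no sample without IFN-γ or without overexpressed YTHDF1 entered, and the binding is that of an overexpressed protein. Of 5 epithelial marker genes, EPCAM, KRT8, KRT18 and KRT19 had a listed window and CDH1 did not, while 0 of 3 blood and 0 of 3 fibroblast markers had one; a listed window is no level of expression.

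In this table a window is a 50 bp stretch of a gene with a signal value, a score whose scale is not stated, and a q-value of at most 0.05. The table gives 1 value per window with no replicate named. The paper describes its protein-coding peaks as a union of replicates, so whether a window was found in both is unknown. There was thus no spread between replicates, no test over samples could be made, and the depth of the libraries is unknown. Every comparison below is a description of the table. The paper counts fewer genes with enriched mRNA than the 6679 protein-coding genes of the table, so not every listed gene was counted there. The 95% intervals are Wilson intervals, which cover counting error only, and windows of a gene are not independent. No gene had more than 9 listed windows, so 9 was read as 9 or more, and where further windows of such genes lay is unknown.

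RefSeq promoter stretches run from 250 bases before to 50 after each annotated start of a gene, and 6 ZNF windows lay wholly inside one. The 3 of them with at least 25 of their 50 bases before the 5′ end of the whole gene interval are shown, because these listed windows lie mostly outside the annotated gene. Sequences are from RefSeq (GRCh38.p14), in the direction of the gene from 5′ to 3′, and capitals mark bases at or after that end.
ZNF410, chr14:73886818-73886867, plus strand: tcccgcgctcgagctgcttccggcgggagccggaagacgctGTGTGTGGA
ZNF644, chr1:91022049-91022098, minus strand: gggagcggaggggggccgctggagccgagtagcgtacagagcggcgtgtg
ZNF891, chr12:133130318-133130367, minus strand: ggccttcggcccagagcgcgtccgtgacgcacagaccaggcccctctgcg

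In the authors' deposited table, their signal values were 2.27 in ZNF410, 1.84 in ZNF644 and 1.85 in ZNF891. The 3 windows held 70% to 74% G and C. The letters GGAC, the core of the commonest m6A motif, were searched on both strands of all windows that lay wholly inside a promoter stretch. On the strand of the gene GGAC was found in 0 of 6 ZNF windows and in 88 of 377 windows of the other genes (23.3%), and on the opposite strand in 1 of 6 (16.7%) and in 62 of 377 (16.4%). With 6 windows these shares could not be told apart. Promoter overlap itself was as frequent in ZNF genes as elsewhere. At least 1 listed window overlapped a promoter stretch in 26 ZNF genes (17.7%), against a background of 17.9% among the other genes.

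ZNF genes were listed more often than other genes of their chromosomes. Of 267 RefSeq protein-coding ZNF genes on these 20 chromosomes, 146 had a listed window, which is 54.7% (48.7% to 60.5%). The background was 31.5% (5575 of 17675 other genes, 30.9% to 32.2%), and on chromosome 19 the share was 42% of 250 ZNF genes (36.0% to 48.2%). A gene needs RNA in these cells to be listed, and its expression was not accounted for. In ZNF660, ZNF620 and ZNF789 the only listed window lay outside the RefSeq interval of the gene, and that of ZNF620 overlapped windows of ZNF619. The share was not recomputed without windows that overlap those of another gene. The read-through gene ZNF670-ZNF695 was the 1 listed member with no match among RefSeq protein-coding symbols, and 121 RefSeq ZNF genes had no listed window.

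The excess over the other genes was present on most chromosomes. On chromosome 12, 11 of 14 ZNF genes were listed (78.6%, against 33.8% of the other genes), and on chromosome 6 it was 7 of 9 (77.8%, against 31.1%). On chromosome 16 it was 20 of 30 (66.7%, against 38.2%) and on chromosome 7 it was 20 of 35 (57.1%, against 29.5%). Intervals of single chromosomes were wide, with 45.3% to 93.7% for the ZNF genes of chromosome 6. On chromosomes 5 and 8 the shares were near those of the other genes, with 4 of 13 (30.8%) against 32.1% and 6 of 18 (33.3%) against 30.2%. On the X chromosome, 5 of 12 ZNF genes (41.7%) were listed, against 16% of the other genes.

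**Figure D1:**
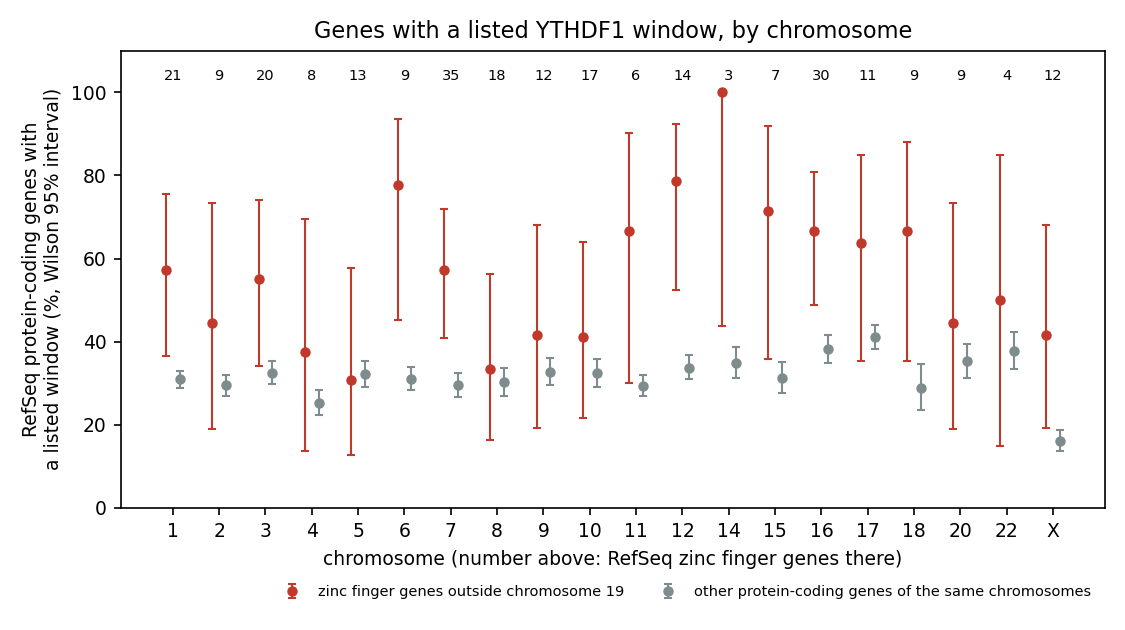
Share of RefSeq protein-coding genes with at least 1 listed window on each chromosome, in percent with Wilson 95% intervals; red points are ZNF genes, grey points are the other protein-coding genes, and the number above each pair is the count of RefSeq ZNF genes. The red point lies above the grey one on every chromosome shown except chromosome 5, and most intervals of single chromosomes are wide.

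ZNF genes often stand in neighbourhoods that arose by duplication. Taking RefSeq ZNF genes at most 250 kb apart, 12 neighbourhoods of 4 or more genes were found outside chromosome 19. Within them 46 of 78 genes were listed (59.0%), and outside them 100 of 189 (52.9%). The share was 54.7% over all ZNF genes outside chromosome 19, and the background was 31.5%. The read-through gene ZNF660-ZNF197 was counted among the 78 as not listed. In single neighbourhoods the listed share ran from 20% to 100%, but each held only 4 to 10 genes. At the end of the long arm of chromosome 12 (chr12:132918306-133214832), all 7 genes, namely ZNF605, ZNF26, ZNF84, ZNF140, ZNF891, ZNF10 and ZNF268, were listed with 24 windows, and their largest signal values ran from 1.77 (ZNF10) to 3.62 (ZNF891). On chromosome 7 at chr7:149069641-149497809, 7 of 8 genes were listed with 32 windows, and ZNF425 was the one without. In another neighbourhood of that chromosome, chr7:63998849-64991036, 4 of 10 genes were listed with 8 windows. At the end of chromosome 5, ZNF354A alone of 5 genes was listed. ZNF genes of a neighbourhood resemble each other in sequence, and the handling of reads that match several genes is not given in the sources used here.

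The number of windows per listed gene was close to that of other genes. The median was 3 windows for ZNF genes and 3 for the other genes, and the means were 3.99 (SD 2.85 over 147 genes) and 3.73 (SD 2.78 over 5832 genes). ZNF genes of chromosome 19 had a median of 2 and a mean of 3.03. A single window was listed for 35 ZNF genes (23.8%, 17.6% to 31.3%), and the background was 28.8% (27.7% to 30.0%). From 2 to 8 windows, the numbers of ZNF genes were 28, 19, 13, 10, 8, 7 and 4. The upper limit of 9 windows was reached by 23 ZNF genes (15.6%, 10.7% to 22.4%), beside a background of 12.9% (12.1% to 13.8%) and 6.67% of the ZNF genes on chromosome 19. Both intervals of the ZNF shares contained the background value. Among genes of middle breadth in tested windows (27.25 to 60), the median was 3 windows in ZNF genes and 4 in the others. Genes with 9 listed windows were kept in that set, although their computed number of tested windows can be too low. Some of them may therefore be placed in the wrong breadth.

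These windows were drawn from a larger number tested. The number of windows tested in a gene, computed from its q-values and p-values, had a median of 40 in 123 ZNF genes with fewer than 9 listed windows and a computable value, and of 31 in 5055 other such genes. The listed share of tested windows had a median of 6.56% in ZNF genes and 8.33% in the others. By RefSeq, the genomic intervals of ZNF genes were shorter, with a median of 24694 bp against 33870 bp. Across genes, which are not independent replicates, Spearman's rho between listed and tested windows was 0.38 in ZNF genes (n = 123) and 0.50 in the others, and between listed windows and interval length it was 0.09 (n = 146) and 0.17.

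The median signal was close to that of the other genes. The largest signal value per gene had a median of 2.27 in ZNF genes (2.01 at the 25th and 2.62 at the 75th percentile), 2.23 in the other genes (1.94 and 2.56) and 2.37 in ZNF genes of chromosome 19. A largest value of at least 2 was found in 114 ZNF genes (77.6%, 70.2% to 83.5%), against a background of 69.7% (68.5% to 70.8%) and 78.1% of ZNF genes on chromosome 19. The ZNF interval lay just above the background value, although it overlapped the background interval. A largest value of at least 3 was found in 16 ZNF genes (10.9%), against a background of 8.37% and 13.3% on chromosome 19. Over all windows, the median signal value was 1.86 in ZNF genes and 1.83 in the others. Weak windows were rarer than in the other genes: 4 of 586 ZNF windows had a value under 1 (0.683%, 0.266% to 1.74%), whereas 602 of 21729 windows of the other genes did (2.77%). On chromosome 19, 4 of 318 ZNF windows had such a value (1.26%, 0.490% to 3.19%). A window with a q-value of at most 0.001 was present in 99 ZNF genes (67.3%), beside a background of 67.2%.

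**Figure D2:**
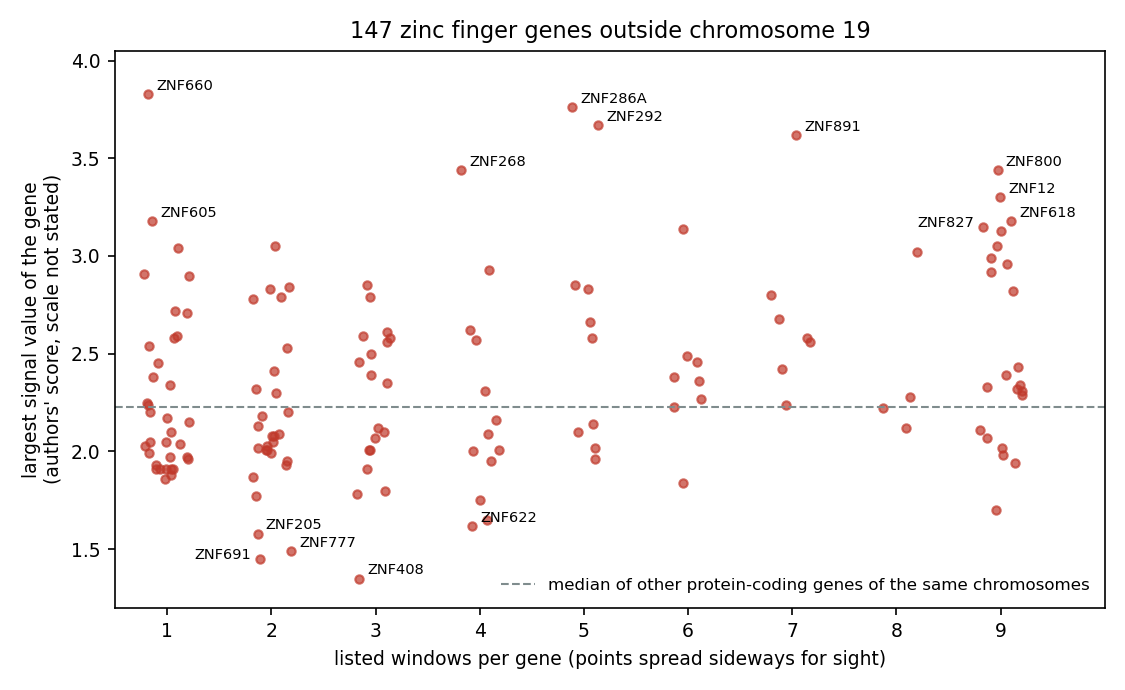
Largest signal value of each of the 147 ZNF genes (authors' score, scale not stated) against its number of listed windows, with the median of the other protein-coding genes, 2.23, as a dashed line. High values occur at every number of windows, from ZNF660 with 1 window (3.83) to ZNF800 with 9 (3.44), and ZNF408 is lowest at 1.35.

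The strongest ZNF genes fell into several shapes. ZNF660 (ENSG00000144792) had the largest value, 3.83 (q = 5.49e-09), in its only window at chr3:44580574-44580623. That window began 4390 bp before the annotated 5′ end of ZNF660 and shared 30 bp with a listed window of its neighbour ZKSCAN7 (3.62), so its gene is uncertain. ZNF605 (ENSG00000196458) likewise had 1 window (3.18), which shared 31 bp with a window of CHFR (2.99), a checkpoint ubiquitin ligase.

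ZNF286A (ENSG00000187607) had 5 touching windows on chromosome 17, chr17:15700078-15700327, with values of 3.15, 3.69, 3.76, 2.87 and 3.23 from 5′ to 3′. All 5 also overlapped windows of AC005324.4 in the table, so this stretch was counted under both names. ZNF292 (ENSG00000188994), a very large zinc finger protein mutated in several cancers, had 3 touching windows from 19 bp after its 5′ end with values of 3.38, 3.67 and 3.14. Its other windows lay 77819 and 99119 bp from that end and were weaker, at 1.82 and 1.98.

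ZNF800 (ENSG00000048405) had 9 windows within 600 bp of sequence next to its 5′ end. From 5′ to 3′ the values were 2.88, 1.58, 1.83, 1.99, 1.83, 2.47, 2.65, 3.24 and 3.44, so the signal was high at both edges of the stretch and low between them. ZNF12 (ENSG00000164631), a KRAB zinc finger repressor, had 8 windows in the first 500 bp and another 9164 bp from the 5′ end. The values were 1.98, 2.11, 3.28, 3.14, 3.22, 3.30, 2.18 and 2.08 near the end and 2.42 in the remote window, with a plateau in the middle of the block. ZNF891 (ENSG00000214029) had 7 windows of 1.85, 2.25, 1.65, 1.85, 2.60, 3.62 and 1.83 from 5′ to 3′, of which the first is the promoter window printed above and the strongest lay 8557 bp inside the gene.

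ZNF268 (ENSG00000090612) had a window of 3.44 among 3 others of 1.86, and 3 of its 4 windows overlapped windows of AC026786.1. ZNF618 (ENSG00000157657) had 9 windows in 4 groups over 172850 bp, the widest spread of all ZNF genes, with values of 2.51 and 3.18 at the 5′ end, 2.21, 1.83 and 1.78 in the next group, 2.41, 1.94 and 1.59 in the following one and 1.75 in the last. ZNF827 (ENSG00000151612), which is linked to telomere chromatin, had 9 windows between 1.35 and 3.15.

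At the other end were genes with low signal values, although their q-values passed the limit of the table. ZNF408 had values of 1.12, 1.08 and 1.35, ZNF691 had 1.30 and 1.45, ZNF777 had 1.28 and 1.49, and ZNF205 had 1.52 and 1.58. ZNF622, a factor in the maturation of the large ribosomal subunit, had 1.62, 1.58, 0.86 and 1.05 from 5′ to 3′. The windows touched each other in ZNF205, ZNF777 and ZNF408.

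Among the 23 genes with 9 windows, those with the largest values were ZNF800, ZNF12, ZNF618, ZNF827, ZNF609, ZNF195, ZNF316 and ZNF398. ZNF609, whose RNA is also known as a source of a circular RNA, had all 9 listed windows within 500 bp. Their values were 1.56, 1.62, 1.53, 2.02, 2.16, 1.46, 2.13, 1.38 and 3.13 from 5′ to 3′. In ZNF195, 7 of the 9 windows lay 12065 to 12715 bp beyond the annotated 3′ end, at 1.64 to 2.71, and the strongest (3.05) lay 7485 bp inside the gene. ZNF316 had 8 of its 9 windows between 15801 and 16951 bp from the 5′ end, with a maximum of 2.99, and ZNF398 reached 2.96.

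Windows of ZNF genes were spaced much like those of other genes. Of 439 neighbouring pairs of windows in 112 ZNF genes with 2 or more, 202 touched (46.0%, 41.4% to 50.7%), against 43.5% (42.7% to 44.3%) in the other genes and 43.2% on chromosome 19. The median distance from start to start was 100 bp in all 3 sets. The 75th percentile was 1350 bp in ZNF genes, 2800 bp in the other genes and 3200 bp in ZNF genes of chromosome 19. Distances over 10 kb made up 10.9% of pairs in ZNF genes (8.35% to 14.2%) and 14.2% (13.7% to 14.7%) in the others. The intervals of both ZNF shares contained the value of the other genes. The stretch from first to last window had a median of 6100 bp in ZNF genes and 7450 bp in the others, which had the longer gene intervals. All windows formed a single unbroken run in 17 of the 112 ZNF genes (15.2%), beside a background of 13.1%.

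The 52 ZNF genes with 5 or more windows ranged from compact to scattered. In 9 of them, ZNF232, ZNF24, ZNF281, ZNF286A, ZNF483, ZNF514, ZNF609, ZNF638 and ZNF800, all listed windows fell within 1 kb. ZNF24, ZNF281, ZNF609 and ZNF800 were at the limit of 9 listed windows, so where any further windows lay is unknown. In 5 of the 52 genes, ZNF148, ZNF292, ZNF516, ZNF618 and ZNF644, the windows spread over more than 50 kb. The 5 widest stretches were those of ZNF618, ZNF148 (144150 bp), ZNF292 (99150 bp), ZNF644 (82100 bp) and ZNF277 (80300 bp).

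**Figure D3:**
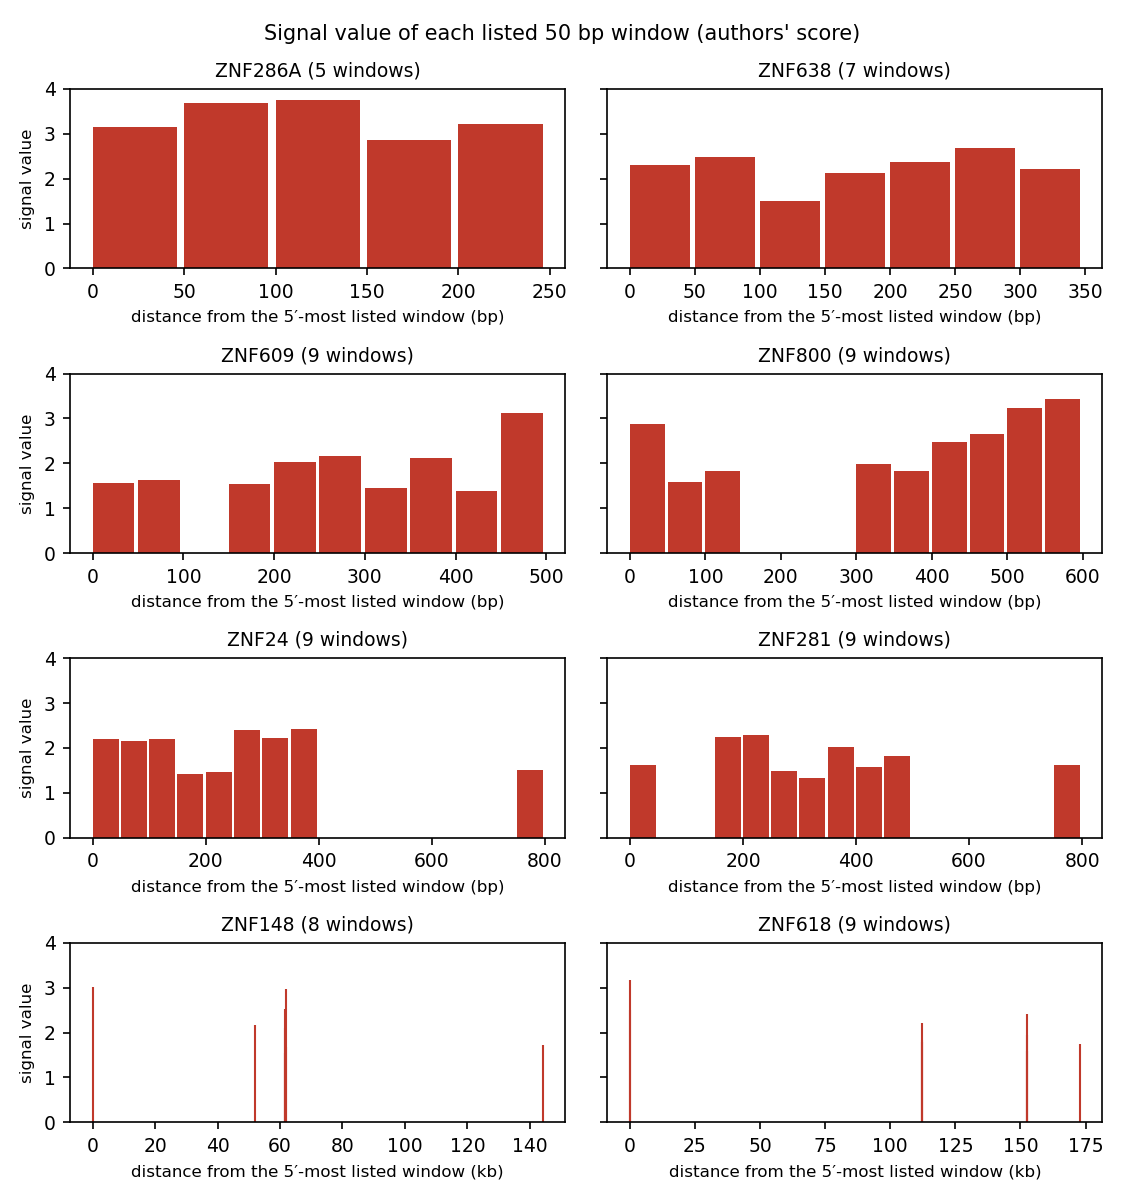
Signal value of each listed window (authors' score) by distance from the 5′-most listed window of the gene, for 8 ZNF genes; bars are 50 bp wide in the first 6 panels, and thin lines stand for windows in the last 2, whose axes are in kb. ZNF286A and ZNF638 form unbroken runs of 5 and 7 windows, ZNF609, ZNF800, ZNF24 and ZNF281 form blocks with gaps, and ZNF148 and ZNF618 hold groups of windows many kb apart.

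Along the gene, smaller shares of ZNF windows lay at the 5′ end, on chromosome 19 and outside it. Inside the RefSeq intervals, 134 of 560 ZNF windows lay within 1000 bp of the 5′ end (23.9%, 20.6% to 27.6%), compared with 31.5% (30.9% to 32.2%) of the windows of the other genes and 26.7% on chromosome 19. Counted by gene, 61 of 143 ZNF genes had such a window (42.7%, 34.8% to 50.9%) and 45.2% of those on chromosome 19, against a background of 50.3%, which both gene intervals contained. The strongest window of a gene lay there in 44 of 139 ZNF genes (31.7%, 24.5% to 39.8%) and in 32.4% of those on chromosome 19, against a background of 38.1%. With the interval cut into 10 equal parts, the first part held 26.4% of ZNF windows, 28.3% of those on chromosome 19 and 35.0% of the others, and the next part held 12.7%, 4.23% and 7.16%.

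At the 3′ end, ZNF genes outside chromosome 19 were near the other genes and below those on chromosome 19. Within 5000 bp of the 3′ end lay 141 ZNF windows (25.2%), 22.4% of the windows of the other genes and 40.4% of the windows of ZNF genes on chromosome 19. By gene the shares were 36.4% (52 of 143), a background of 37.4%, and 51.9% on chromosome 19. Positions are along the genomic interval with introns included. A shorter interval brings more of a gene within a fixed distance of its ends, and exons and untranslated parts were not analysed here.

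**Figure D4:**
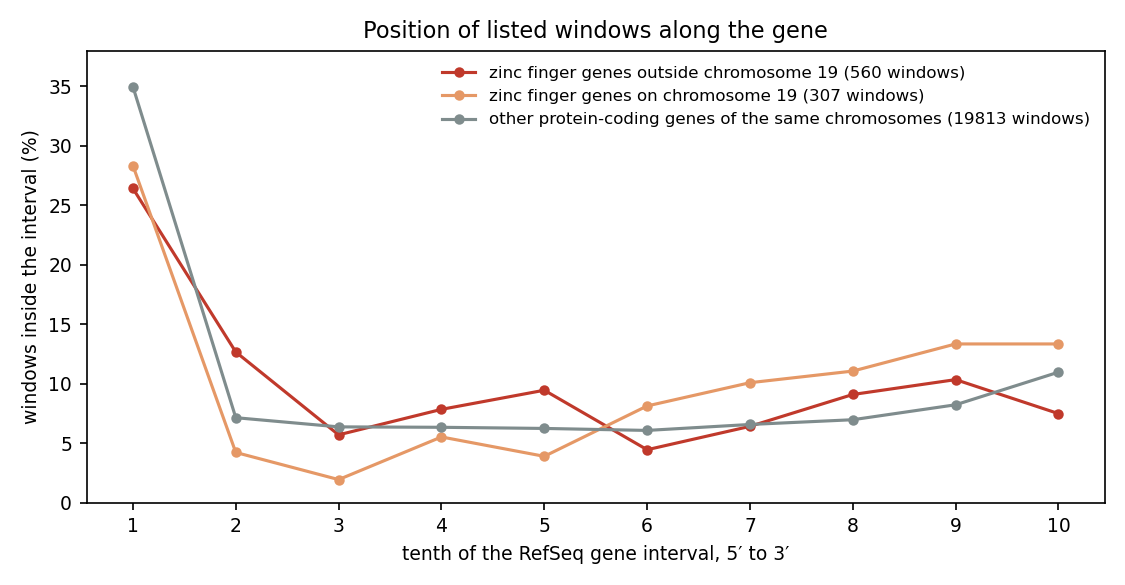
Share of listed windows (percent) in each of 10 equal parts of the RefSeq gene interval from the 5′ to the 3′ end, for ZNF genes outside chromosome 19, ZNF genes on chromosome 19 and the other protein-coding genes. The first part holds 26.4% of the windows of ZNF genes outside chromosome 19 and 35.0% of those of the other genes.

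ZNF genes with a known role, transcription factors among them, were looked up in a list of 32. Of these, 24 (75%) had a window, beside 54.7% of all ZNF genes and the background of 31.5%. Their median largest value was 2.28. The list was made by name with earlier results of these data known, so its higher share is no independent result. Expression was not accounted for in these shares. Several genes of the list act on RNA, ribosomes or cell division. ZNF598, the ubiquitin ligase that marks collided ribosomes, had 2.39, 1.67 and 1.71 from 5′ to 3′. ZNF346, a protein that binds double-stranded RNA, had 1.99 and 3.05 in touching windows at its 5′ end, and ZNF326, a subunit of a complex that couples transcription and splicing, had a window of 2.58 there. ZNF638, which takes part in silencing of unintegrated retroviral DNA, had 7 touching windows of 2.31, 2.48, 1.51, 2.12, 2.37, 2.68 and 2.22. ZNF207, a spindle assembly factor, had 2.08 and 1.92, and ZNF106 had 6 windows of at most 1.84.

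Among the transcription factors of that list, ZNF148 had 8 windows of 3.02, 2.16, 1.55, 2.11, 2.52, 2.97, 1.69 and 1.72 from 5′ to 3′, with one peak at the 5′ end and another 61893 bp inside. Its close relative ZNF281 had 9 weaker windows within 800 bp, with a maximum of 2.29. ZNF217, an oncogene of chromosome 20, had 8 windows up to 2.12. ZNF410, an activator of the chromatin remodeller gene CHD4, had 6 windows of 2.27, 2.12, 1.06, 1.67, 1.78 and 1.27, the first being the promoter window printed above, and CHD4 itself reached the limit of 9 windows with a maximum of 2.39. ZNF445, a KRAB protein that maintains genomic imprints, had 9 windows up to 2.92, and ZNF746, a repressor known as PARIS, had 7 up to 2.80. ZNF10, whose KRAB domain is widely used to repress genes experimentally, had 2 windows of 1.77. ZNF451 had 9 (maximum 2.34), ZNF318 had 9 (2.11), ZNF592 had 9 (2.07), ZNF263 had 6 (2.49), ZNF644 had 5 (2.14), ZNF687 had 4 (2.09), ZNF131 had 3 (2.12), ZNF335 had 1 (2.54) and ZNF384 had 1 (1.88). The 8 without a listed window were ZNF703, ZNF143, ZNF423, ZNF521, ZNF462, ZNF341, ZNF750 and ZNF365.

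The co-repressor that KRAB proteins recruit was listed as well. Of 18 genes for TRIM28 and its partners, 11 (61.1%) had a window, beside the background of 31.5%, and their median largest value was 2.39. These partners and the families below were taken by name on any chromosome, while the background leaves out chromosome 19. They too were chosen with earlier results of these data known, so their shares are no independent results. Expression was not accounted for in any of these shares. TRIM28 had 9 windows (maximum 2.93), TASOR, a core subunit of the HUSH silencing complex, had 9 (3.33), ATF7IP, the partner of SETDB1, had 5 (3.21) and SETDB1 had 4 (1.82). CBX3, CBX5, HDAC1, HDAC2, MORC2, MPHOSPH8 and PPHLN1 had none. Of other zinc finger families, beside 54.7% of the ZNF genes and the same background of 31.5%, windows were listed for 29 of 42 ZBTB genes (69.0%, median largest value 2.32), 7 of 7 ZKSCAN genes (2.7), 13 of 21 ZSCAN genes (61.9%, 2.28) and 13 of 21 ZFP genes (61.9%, 2.15). For reference, IRF1, the interferon-induced transcription factor, had 3 windows with a maximum of 2.37, close to the median ZNF gene.

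Shared sequence limited which gene a window belongs to. In 24 ZNF genes, 64 windows overlapped a listed window of another gene, 62 of them on the same strand. Besides the genes above, all 6 windows of ZNF410 overlapped AC005520.1 and 7 windows of ZNF37A overlapped AL117339.5. Of 585 windows matched to a RefSeq gene, 25 in 14 genes lay outside the RefSeq interval. Among these, 6 windows of ZNF775 (0.76 to 1.53) lay 6639 to 9239 bp before its 5′ end. Each of the 6 shared 49 bp on the same strand with a listed window of REPIN1 (0.83 to 1.64), so their gene is uncertain.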

How the data were processed

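RIP-seq libraries of SNU638 cells (input, n = 2; IP-YTHDF1, n = 2) were summarised by the authors in 1 table. STAR 2.7.3a and GRCh38 are named in the submitters' processing notes, and the peak caller is not given in the sources used here. The deposited table gives per 50 bp window a signal value and a rank, both treated as a score of unstated scale, and a p-value and q-value. These are the authors' values with no replicate named, 0 columns held values of a single library, and depth is unknown. Of 26820 rows, 1 repeated another and was dropped.

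Windows were counted per gene identifier. Windows tested per gene were computed as q-value times number of listed windows over p-value, at the largest p-value, using p-values above 1e-14. The check on simulated data covered genes with 8 or fewer listed windows. For genes with 9, the result can be too low. Positions were set against RefSeq gene intervals and promoter stretches of 300 bp (GRCh38.p14), with 146 of 147 members matched by symbol. Named genes were the 10 with the largest and the 5 with the smallest largest signal value, the 8 strongest with 9 windows, the 5 with the widest stretch, the listed roles, TRIM28 partners, IRF1 and YTHDF1 (3 windows, maximum 1.92). The members and lists were chosen with earlier results of these data known. Further genes were named from the table after their values were seen. Alternatives changed the q-value and signal limits, background chromosomes, gene breadth, shared windows, genes with 9 windows, joined runs and chromosome 7. The scripts ran in Python 3.11.15 with matplotlib 3.10.9, SciPy 1.17.1, NumPy 2.4.6 and pandas 2.3.3.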

Additional observations from a re-analysis of the deposited data

How the results depend on the processing

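No paired analysis was possible because the deposited table holds 1 value per window with no replicate named, which also kept any library from being left out. Over 8 settings, 53 recomputed values were set beside the reported ones: 38 moved by less than their counting interval without turning their direction against the other genes, 10 moved further and 5 turned their direction. The setting that changed only the background chromosomes left every ZNF value as it was, so it could not move one. Windows per gene had equal medians of 3 in both sets, so that direction could not turn. The 38 are therefore no measure of stability. With a q-value limit of 0.001 (99 ZNF genes, 239 windows), the median largest signal value was 2.5 (2.42 in the other genes), the median over windows 2.27 (2.20), the touching share 52.1% (48.0%), the share of genes with 9 windows 1.01% (0.357%) and the share of RefSeq genes listed 37.1% (21.2%), while the share with 1 window turned above the other genes (42.4% against 40.9%). With signal values of at least 2 (114 genes, 227 windows), windows per gene had a median of 1 (1), windows a median signal of 2.32 (2.32), RefSeq genes listed made up 42.7% (22%), the median position was 18.2% of the gene (13.8%), and 3 directions turned: largest signal 2.40 against 2.41, genes with 1 window 57.0% against 53.9%, and genes with 9 windows 0% (up to 3.26%) against 0.123%. Among 73 genes of middle breadth (27.25 to 60 tested windows), 21.9% had 1 window against 21.0%, and the median of 3 windows, reported as equal, stood against 4. That set kept genes with 9 listed windows, whose computed number of tested windows can be too low, so its make-up is uncertain. With touching windows joined, 35.4% of genes had 1 run against 38.2%. The share of RefSeq genes listed stayed above that of the other genes under each of its alternatives. Members defined by C2H2 patterns, and fingers per protein, were not run because protein sequences were not used here, and joined runs were not run for spacing. What moved these values beyond the fewer windows kept was not tested.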

Other observations

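Identical signal values and p-values recurred within ZNF genes. Of 551 windows in ZNF genes with 2 or more, 55 (9.98%, 7.75% to 12.8%) repeated the signal value, p-value and q-value of another window of the same gene, compared with 7.29% in ZNF genes of chromosome 19 and 5.56% (5.25% to 5.89%) in the other genes. They lay in 22 of 112 ZNF genes (19.6%), against 11.2% of the other genes. In ZNF268, 2 windows with 1.86 (q = 0.007396) began 10000 bp apart. In ZNF195, 4 windows had 1.64, and both windows of ZNF10 had 1.77 although they began 24950 bp apart. The cause was not tested.

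The 5′ ends of ZNF891 and ZNF10 face away from each other on chromosome 12, and both had a listed window there. The window of ZNF891 (1.85, minus strand) began at 133130318 and that of ZNF10 (1.77, plus strand) at 133130676.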
